A study of Homo sapiens with 12 samples.

Results

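The 9 genes described here encode the urokinase and collagenase system and its inhibitors: PLAU, PLAUR and PLAT of plasminogen activation, the matrix metalloproteinases MMP1, MMP2 and MMP14, and the metalloproteinase inhibitors TIMP1, TIMP2 and TIMP3. They were chosen with earlier results of these data known, and their probes were found by symbol. Every probe whose array annotation gave one of these names was taken. This gave 13 probes of the 48803 on the array, and 9 of its 18665 named genes. The cells were SW-13, an established human adrenal carcinoma line that lacks BRG1, the ATPase of the SWI/SNF chromatin remodeler encoded by SMARCA4. All carried an adenovirus, which encoded either GFP (Ad-GFP) or BRG1 fused to GFP (Ad-BRG1, dosed to give as much BRG1 as HeLa cells hold). Both kinds of cell were kept untreated or received IFNγ for 6 h. The 4 groups were therefore untreated Ad-GFP, untreated Ad-BRG1, IFNγ-treated Ad-GFP and IFNγ-treated Ad-BRG1 cells, each with 3 arrays (12 in all), and every comparison rests on this cell line.

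Urokinase (PLAU) and tissue-type plasminogen activator (PLAT) are secreted serine proteases that convert plasminogen to plasmin, and PLAUR is the cell-surface receptor that holds urokinase at the membrane. Plasmin degrades fibrin and can activate several metalloproteinase proenzymes. MMP1 is the interstitial collagenase that cuts fibrillar collagen, MMP2 is a gelatinase, and MMP14 is a membrane-bound protease that activates the MMP2 proenzyme together with TIMP2. The TIMP proteins are secreted and bind the active site of metalloproteinases, with TIMP3 held in the matrix. Cells use this system when they invade or remodel matrix.

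To show the promoters of the genes on which the results turn, the 250 bases before each start annotated by RefSeq (GRCh38.p14) are printed 5′ to 3′ on the gene's own strand, where a window was at hand. PLAU, which moved most, has windows for 2 starts, at chr10:73910360-73910609 and chr10:73910882-73911131, both on the plus strand. PLAUR, the receptor of the same enzyme, lies on the minus strand at chr19:43670170-43670419. TIMP1, an inhibitor with a small difference, lies on the plus strand at chrX:47582186-47582435. Capitals mark matches to the AP-1 motif TGANTCA or to the Sp1 motif GGGCGG, searched on both strands.
PLAU, upstream start: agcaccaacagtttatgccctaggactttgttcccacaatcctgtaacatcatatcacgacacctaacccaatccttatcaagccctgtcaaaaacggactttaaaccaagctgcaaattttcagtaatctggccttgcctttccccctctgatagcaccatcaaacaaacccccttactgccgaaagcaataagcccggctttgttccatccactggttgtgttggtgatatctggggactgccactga
PLAU, downstream start: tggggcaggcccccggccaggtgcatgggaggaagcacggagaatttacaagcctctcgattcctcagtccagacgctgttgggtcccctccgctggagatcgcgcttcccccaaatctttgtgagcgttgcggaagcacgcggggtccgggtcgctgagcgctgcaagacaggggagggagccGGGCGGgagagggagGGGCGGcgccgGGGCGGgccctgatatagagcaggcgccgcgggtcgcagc
PLAUR: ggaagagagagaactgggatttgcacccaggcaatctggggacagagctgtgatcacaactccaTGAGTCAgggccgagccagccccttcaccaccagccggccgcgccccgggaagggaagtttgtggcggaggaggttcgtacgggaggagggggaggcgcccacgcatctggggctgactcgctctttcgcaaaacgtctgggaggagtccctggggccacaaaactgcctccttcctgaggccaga
TIMP1: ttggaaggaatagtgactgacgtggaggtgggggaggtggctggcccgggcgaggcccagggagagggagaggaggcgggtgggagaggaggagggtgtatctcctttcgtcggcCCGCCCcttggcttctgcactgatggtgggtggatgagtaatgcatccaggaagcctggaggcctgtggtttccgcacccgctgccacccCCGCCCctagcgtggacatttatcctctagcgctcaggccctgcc
The downstream PLAU window held 3 Sp1 matches and the TIMP1 window 2, and the PLAUR window held 1 AP-1 match and no Sp1 match. The TATA box motif TATAAA and the GAS motif TTCNNNGAA had no match in any of the 4 windows. Of all 35116 promoter windows of this length, 42.6% held GGGCGG, 6.57% held TGANTCA, 10.7% held TATAAA and 6.57% held TTCNNNGAA. A match describes letters only and was not tested for binding. The windows of MMP14 and TIMP3, 2 genes not above background, held Sp1 matches and no other.

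Raw mean intensity was 539.9 to 666 per array, 15741 to 16828 probes per array were above background (detection p under 0.05, against negative control beads), and replicate arrays correlated at r 0.994 to 0.998 over the tested genes, which are no independent replicates. The SMARCA4 probe read 8.57 to 8.81 in untreated Ad-GFP and 8.43 to 8.61 in untreated Ad-BRG1 cells on the log2 scale, so it does not check the virus labels. IRF1, an IFNγ target, read 7.90 to 8.62 in untreated and 13.09 to 13.85 in IFNγ-treated cells, so it separated the treatment labels on every array. Of 8 adrenal cortex marker genes, none was above background on all arrays of an untreated group or of IFNγ-treated Ad-GFP cells, and 1 (CYP11A1) was in IFNγ-treated Ad-BRG1 cells. Some fibroblast markers moved with BRG1 and others did not. Of 8, 3 were above background on all untreated Ad-GFP arrays and 5 on all untreated Ad-BRG1 arrays. Their summed raw intensity was 5462 to 6194 and 6300.2 to 6704, while COL1A2 was above background on no array. Without IFNγ COL1A1, PDGFRB and THY1 read 5.02, 4.98 and 8.41 in Ad-GFP and 8.54, 6.67 and 9.84 in Ad-BRG1 cells. COL3A1 read 11.65 and 11.55, PDGFRA 7.40 and 7.49, and LUM 5.38 and 5.36. In IFNγ-treated cells 4 of the 8 fibroblast markers were above background in Ad-GFP and 5 in Ad-BRG1 cells. Their sums were 5203 to 5719 and 4920.3 to 5590.2, which overlap. Of 5 epithelial markers, 2 were above background on all untreated Ad-GFP arrays and 1 on all arrays of each other group, with sums of 1137 to 1215 in untreated Ad-GFP, 1405 to 1432 in untreated Ad-BRG1, 1057 to 1078 in treated Ad-GFP and 1199 to 1266 in treated Ad-BRG1 cells. KRT18 read 5.61 in untreated Ad-GFP and 8.20 in untreated Ad-BRG1 cells, whereas EPCAM was above background on 3 and 1 of those arrays and on 2 and 0 of the treated ones, and CDH1 on none. Of 7 leukocyte genes with a probe 2 (CD68 and CD79A), and of 5 endothelial genes 2 (PECAM1 and TEK), were above background on all arrays of every group. The leukocyte sum was 3564 to 3921 in untreated Ad-GFP and 4501 to 4943 in untreated Ad-BRG1 cells, and 3414 to 3799 and 3981 to 4277 with IFNγ, while CD68 read 10.10 and 10.91 without IFNγ. The endothelial sum was 1008 to 1039.7 and 1154 to 1240.1 without IFNγ and 908 to 969 and 947 to 1025 with it, while TEK read 6.74 and 7.70 without IFNγ. The part of these markers in the results was not tested. All samples were of the SW-13 line, so the sums are not read as numbers of cells of other types. Fewer cells with a transcript and less of it per cell cannot be told apart in these bulk samples.

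Of the 9 genes, 7 were tested, each through its brightest probe. PLAU, PLAUR, MMP1, TIMP1 and TIMP2 were above background on all 12 arrays. PLAT passed through the Ad-BRG1 groups only and MMP2 through IFNγ-treated Ad-BRG1 cells only, so a count over the genes that passed is not support for a rise. MMP14 and TIMP3 were above background on no array and were not tested. A gene was called when its adjusted p (limma, Benjamini-Hochberg over 10333 genes) was under 0.05. Levels below are normalized log2 intensities after background correction, and probes of different genes are not compared for level.

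**Figure D1:**
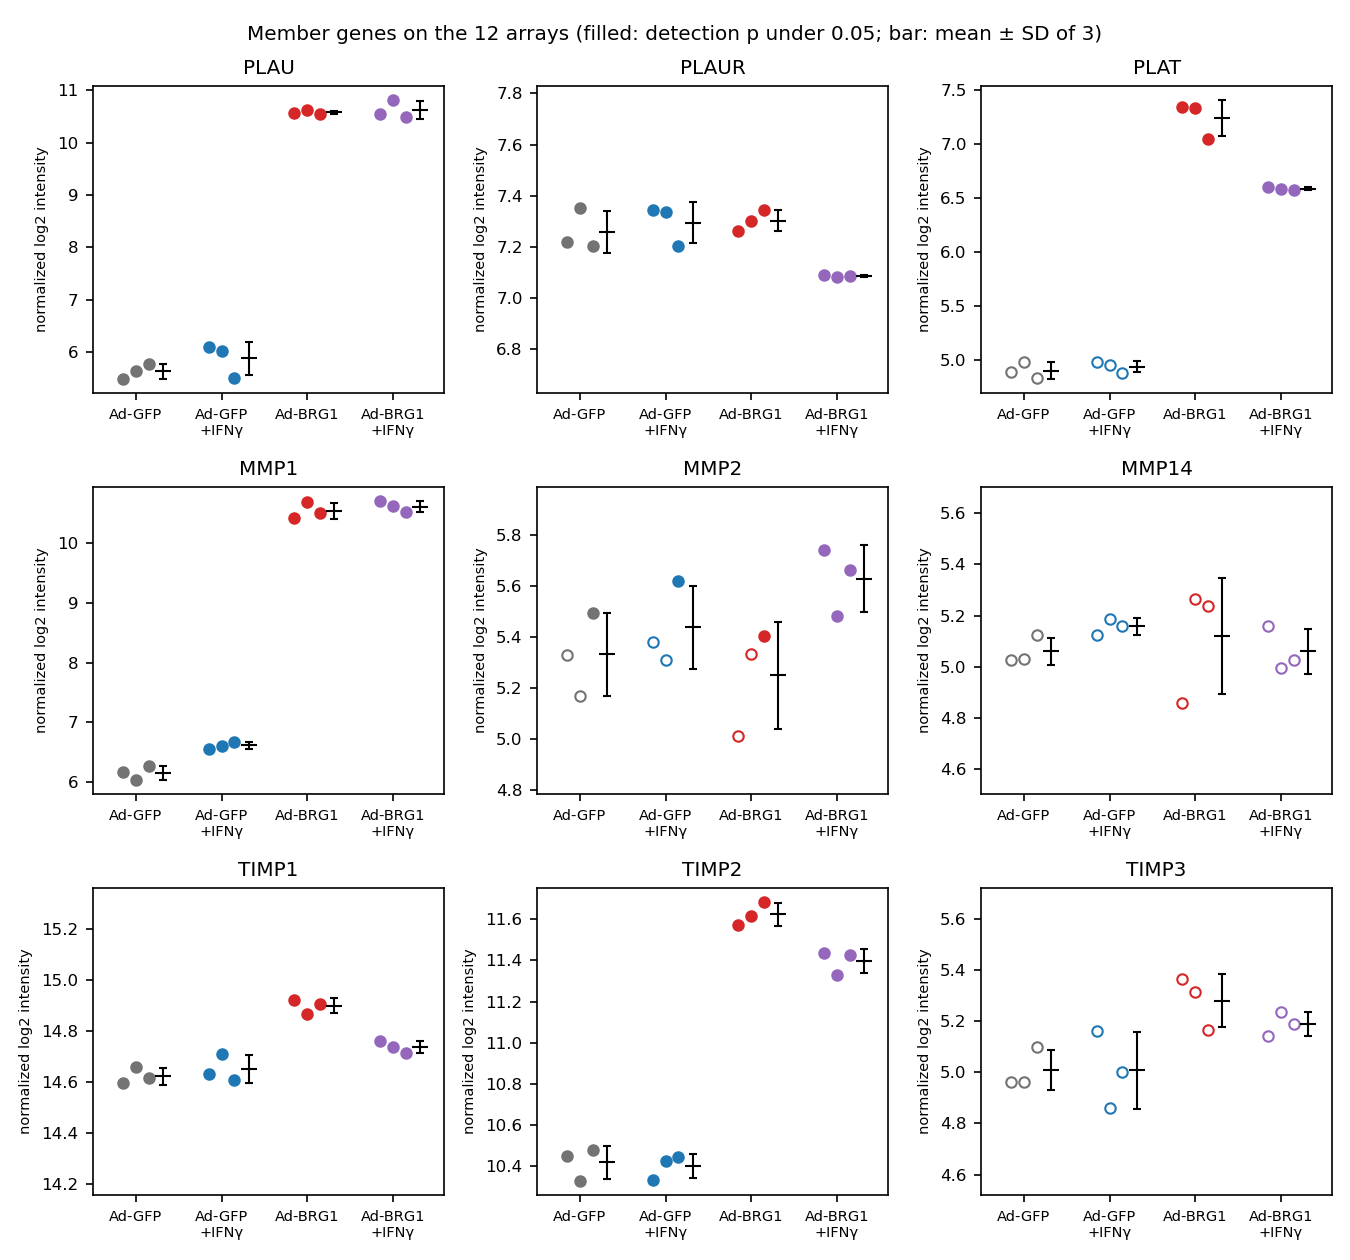
Normalized log2 intensity (y axis, with its own range in each panel) of the 9 genes in the 4 groups (x axis), with 1 point per array, filled where the detection p was under 0.05, and the mean ± SD of 3 arrays as a bar. PLAU, MMP1, PLAT and TIMP2 lie higher on all Ad-BRG1 arrays than on any Ad-GFP array, and MMP14 and TIMP3 have open points throughout.

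The first comparison asked what BRG1 changed in untreated cells. PLAU and MMP1 rose most, 30.7-fold and 20.7-fold, PLAT rose at least 3.64-fold, TIMP2 2.31-fold and TIMP1 1.21-fold, whereas the differences of PLAUR and MMP2 were not called. Thus 5 of the 7 tested genes were called higher and 0 lower, against 26.7% higher and 30.3% lower of all genes tested; at an unadjusted p under 0.05 the count lower was also 0. The median log2 difference was 1.21 for the 7 genes and -0.03 for all genes. PLAT passed the filter only through the Ad-BRG1 groups, and the genes were chosen with earlier results of these data known. The counts and medians of these genes, here and in the later contrasts, are therefore a description and not a test against all genes.

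Among the plasminogen activators, PLAU (gene identifier 5328) read 5.49, 5.65 and 5.77 in Ad-GFP cells, in raw intensity 167 to 172, and 10.57, 10.61 and 10.55 in Ad-BRG1 cells, in raw intensity 1602 to 1737. Every Ad-GFP array lay close to background (detection p 0.0211 to 0.0356) and every Ad-BRG1 array far above, without overlap. The log2 difference was 4.94 ± 0.14 (SE, n = 3 per group; adjusted p = 4.27e-11 by limma). Because the low group is near background, the size depends on the correction for it: without background correction the fold was 10.2 after average normalization and 10.1 after quantile normalization.

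PLAT read 4.89, 4.99 and 4.83 in Ad-GFP cells and 7.34, 7.33 and 7.05 in Ad-BRG1 cells. No Ad-GFP array was above background and all Ad-BRG1 arrays were, so the fold is a lower bound, taken over the dimmest detected probes of each array; without background correction the ratio of the signals was 2.15-fold or 2.14-fold, under that bound, after average or quantile normalization. The fitted log2 difference was 2.33 ± 0.08 (SE; adjusted p = 2.15e-10 by limma). PLAUR, the urokinase receptor, read 7.22, 7.35 and 7.20 in Ad-GFP and 7.26, 7.30 and 7.35 in Ad-BRG1 cells, and the groups overlapped. Its log2 difference of 0.05 had a 95% interval from -0.10 to 0.19. The weaker PLAUR probe gave -0.23 ± 0.11 (SE; adjusted p = 0.102 by limma over all probes), and the other PLAUR probe was above background on no array.

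Among the metalloproteinases, MMP1 read 6.17, 6.04 and 6.27 in Ad-GFP and 10.41, 10.68 and 10.50 in Ad-BRG1 cells. These groups were separated by more than 4 log2 units. The log2 difference was 4.37 ± 0.09 (SE; adjusted p = 1.35e-12 by limma), and without background correction the fold was 8.59 or 8.53. MMP2 read 5.33, 5.17 and 5.49 in Ad-GFP and 5.01, 5.33 and 5.41 in Ad-BRG1 cells, with 1 of 3 arrays above background in each group. The groups overlapped, and the log2 difference was -0.08 (95% interval -0.35 to 0.18). MMP14, the MMP2 activator, read 5.03 to 5.12 in Ad-GFP and 4.86 to 5.26 in Ad-BRG1 cells, all not above background.

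Among the inhibitors, TIMP2 read 10.45, 10.33 and 10.48 in Ad-GFP and 11.57, 11.62 and 11.68 in Ad-BRG1 cells, with no overlap. The log2 difference was 1.21 ± 0.07 (SE; adjusted p = 1.52e-08 by limma), and a second TIMP2 probe gave 1.23 ± 0.13 (SE), while the third was above background on no array. TIMP1 read 14.60, 14.66 and 14.62 in Ad-GFP and 14.92, 14.87 and 14.91 in Ad-BRG1 cells, a difference of 0.28 ± 0.06 (SE; adjusted p = 0.00108 by limma) that is small but larger than the spread. The TIMP3 probe read 4.96, 4.96 and 5.10 against 5.36, 5.31 and 5.16, and no array reached a detection p under 0.05. Only with the detection filter removed was TIMP3 tested, with a log2 difference of 0.27 ± 0.08 (SE; adjusted p = 0.0218 by limma over 18665 genes).

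**Figure D2:**
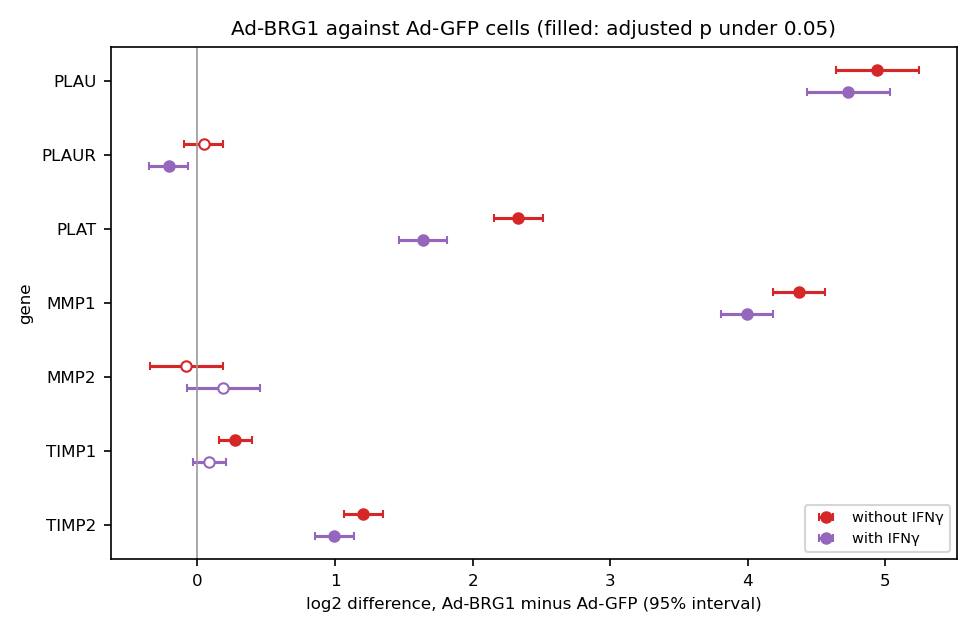
Log2 difference Ad-BRG1 minus Ad-GFP (x axis) of the 7 tested genes (y axis) without and with IFNγ, with 95% intervals of the fit and filled points where the adjusted p was under 0.05. PLAU and MMP1 lie at 4.94 and 4.37 without IFNγ and at 4.73 and 3.99 with it.

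In IFNγ-treated cells PLAU, MMP1, PLAT and TIMP2 were again called higher and PLAUR was called lower, which made 4 higher and 1 lower of the 7 tested, against 28.3% and 32.8% of all genes. After average normalization without background correction PLAUR lost its call and MMP2 was called higher (0.22, adjusted p = 0.0223 by limma), and 54.9% of all calls were higher, compared with 46.3%. PLAU was 26.6-fold, MMP1 15.9-fold, PLAT at least 2.26-fold and TIMP2 1.99-fold higher in Ad-BRG1 cells. The treated Ad-GFP and Ad-BRG1 arrays are different arrays from the untreated ones.

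PLAU read 6.11, 6.03 and 5.52 in Ad-GFP and 10.55, 10.81 and 10.49 in Ad-BRG1 cells, a log2 difference of 4.73 ± 0.14 (SE; adjusted p = 3.54e-11 by limma). MMP1 read 6.56, 6.61 and 6.68 against 10.70, 10.61 and 10.51, a difference of 3.99 ± 0.09 (SE; adjusted p = 1.86e-12 by limma). For both genes the groups were separated on all arrays. Without background correction these folds were 9.93 and 9.70 for PLAU and 8.001 and 7.84 for MMP1.

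PLAT read 4.98, 4.96 and 4.89 against 6.60, 6.58 and 6.57, again with no Ad-GFP array above background; without background correction the ratio was 1.81 or 1.66, under the bound given. TIMP2 read 10.33, 10.42 and 10.45 against 11.44, 11.33 and 11.42, a difference of 0.996 ± 0.07 (SE; adjusted p = 7.0e-08 by limma). PLAUR read 7.35, 7.34 and 7.20 against 7.09, 7.08 and 7.08. All its Ad-BRG1 arrays were lower, by 0.21 on the log2 scale (SE 0.06; adjusted p = 0.0141 by limma), and the weaker probe also fell, by 0.30 (adjusted p = 0.0337 over all probes). Without background correction the fall of PLAUR was not called (adjusted p = 0.559 and 0.0505 by limma), and leaving out replicate 1 or 2 of IFNγ-treated Ad-GFP cells also ended the call (0.0552 and 0.0519).

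MMP2 read 5.38, 5.31 and 5.62 against 5.74, 5.48 and 5.66, a log2 difference of 0.19 (95% interval -0.08 to 0.45) that was not called. TIMP1 read 14.63, 14.71 and 14.61 against 14.76, 14.74 and 14.72. Its groups did not overlap, but the difference of 0.09 (95% interval -0.03 to 0.21; adjusted p = 0.194 by limma) was not called. MMP14 read 5.12 to 5.19 against 4.995 to 5.16, and TIMP3 4.86 to 5.16 against 5.14 to 5.23, with no array above background.

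In Ad-GFP cells 1 of the 7 tested genes was called higher with IFNγ and 0 lower (also 0 lower at an unadjusted p under 0.05), against 3.1% and 0.977% of all genes. That gene was MMP1, which rose by 1.37-fold with no overlap of the groups (log2 difference 0.45 ± 0.09 SE; adjusted p = 0.00966 by limma). The call depends on the processing: without background correction the log2 difference was 0.18 or 0.19 (adjusted p = 0.190 and 0.0995), and without untreated Ad-GFP replicate 2 it was 0.39 (adjusted p = 0.0530). PLAU read higher on 2 of the 3 treated arrays than on any untreated array, but its difference of 0.25 (95% interval -0.05 to 0.55) was not called. The PLAUR, TIMP1 and TIMP2 differences lay between -0.02 and 0.04, that of MMP2 was 0.11, and PLAT was not above background in either group, so no fold is given.

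In Ad-BRG1 cells 1 of the 7 was called higher and 4 lower with IFNγ, against 13.1% and 19.6% of all genes. Without background correction, after average normalization, the share of higher calls among all genes called was 53.2%, compared with 40.1%. Raw mean intensity was 611.7 to 643.5 on the untreated and 539.9 to 571.1 on the treated Ad-BRG1 arrays. Its part in these calls was not tested. PLAT fell most, from 7.34, 7.33 and 7.05 to 6.60, 6.58 and 6.57, that is, by 0.65 on the log2 scale (SE 0.08) or 1.57-fold (adjusted p = 0.000111 by limma). All treated arrays lay below all untreated arrays, and the call was kept under each of the 21 alternatives run, with the smallest fall, by 0.27 or 1.20-fold, after average normalization without background correction.

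The other called responses of Ad-BRG1 cells were small. TIMP2 fell by 0.23 (SE 0.07; adjusted p = 0.0208 by limma), PLAUR by 0.22 (SE 0.06; 0.0237) and TIMP1 by 0.16 (SE 0.06; 0.0442), and MMP2 rose by 0.38 (SE 0.12; 0.0333). For the brightest probe of each of the 4 genes the arrays did not overlap between the groups. The second detected probes of TIMP2 and PLAUR overlapped and were not called. They gave -0.29 (adjusted p = 0.120 by limma over all probes) and -0.11 (0.481). MMP2 passed the detection filter only through the treated group in which it was higher, at a detection p of 0.0264 to 0.0408. When the fit held only the groups compared, none of these 4 was called (adjusted p = 0.0550 to 0.116), and their loss under other alternatives is given with the limits. PLAU (0.04, 95% interval -0.26 to 0.34) and MMP1 (0.08, 95% interval -0.11 to 0.26) overlapped between treated and untreated Ad-BRG1 cells.

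**Figure D3:**
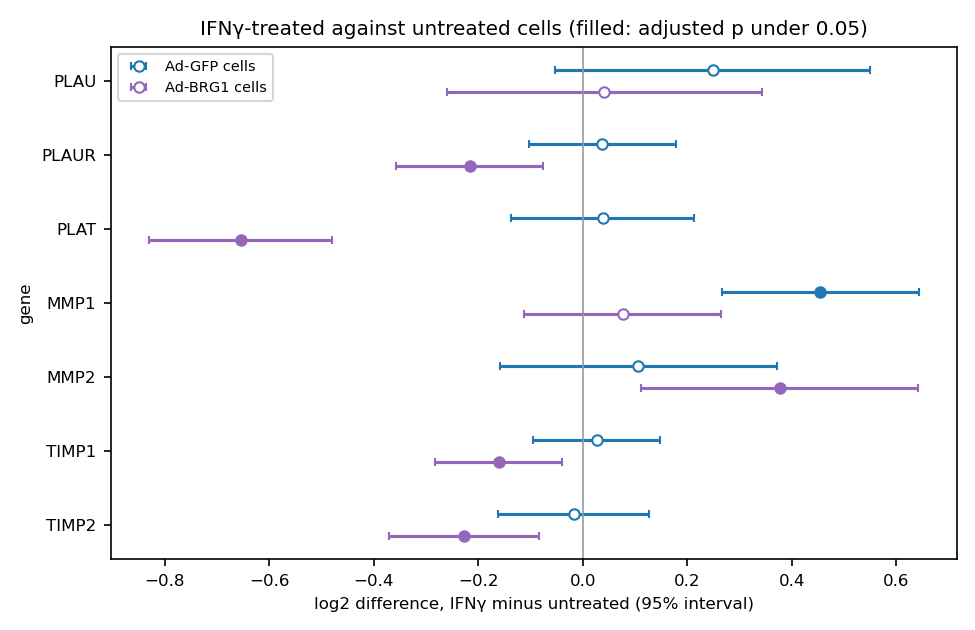
Log2 difference IFNγ minus untreated (x axis) of the 7 tested genes (y axis) in Ad-GFP and Ad-BRG1 cells, with 95% intervals of the fit and filled points where the adjusted p was under 0.05. PLAT in Ad-BRG1 cells lies at -0.65, MMP1 in Ad-GFP cells at 0.45.

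The IFNγ response of Ad-GFP cells was subtracted from that of Ad-BRG1 cells and tested as an interaction, which called 0 of the 7 genes higher and 1 lower (0 and 5 at an unadjusted p under 0.05), against 4.32% and 3.83% of all genes. PLAT was that gene, with a difference of -0.69 ± 0.11 (SE; adjusted p = 0.00383 by limma), also -0.69 after the Ad-GFP arrays were raised to their floor. PLAT was not above background in Ad-GFP cells, so a fall there could not be measured. After average normalization without background correction the value was -0.24 and was not called (adjusted p = 0.0660). For MMP1 it was -0.38 ± 0.12 (SE; adjusted p = 0.0718) and for PLAUR -0.25 ± 0.09 (SE; 0.0960), and neither was called, so the responses of MMP1 in the Ad-GFP and Ad-BRG1 cells were not shown to differ.

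Across the 12 arrays the levels of PLAU correlated with those of MMP1 (Pearson r 0.996), TIMP2 (0.978), PLAT (0.968) and TIMP1 (0.819), and with those of PLAUR (-0.386) and MMP2 (0.127) less closely. The arrays lie in 2 clusters, Ad-GFP and Ad-BRG1, so these values describe mainly the gap between them and carry no test. By the same measure, the genes outside the 9 most like PLAU were ITGB5, an integrin subunit (r 0.999), CGNL1 (0.998), STX3 (0.998), LOXL4, a lysyl oxidase family member (0.997), and ACTA2, smooth muscle actin (0.997). Those most like MMP1 were ZYX, the focal adhesion protein zyxin (0.998), SDC1, a syndecan (0.997), LOXL4 (0.997), PPP1R15A (0.997) and S100A16 (0.997). In all, 90 genes had r over 0.99 with PLAU and 82 with MMP1.

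A list of 51 further genes of plasminogen activation and matrix proteolysis was compared in the same fit; 48 had a probe on the array and 19 were tested. With BRG1, 11 of the 19 were called higher and 4 lower without IFNγ, and 11 higher and 3 lower with it, against the shares of all genes given above. The median log2 difference was 0.25 without IFNγ and 0.49 with it, compared with -0.03 and -0.03 for all genes. THBS1 and RECK passed the filter only through the Ad-BRG1 groups and MMP24 only through untreated Ad-GFP cells, so these counts and medians are a description. SERPINB2 had no probe with that symbol alone, and LRP1, a receptor that clears protease-inhibitor complexes, was on the array but not tested.

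Of the serpins, both tested members rose. SERPINE2 (protease nexin-1), an inhibitor of thrombin and urokinase, read 6.03, 5.92 and 5.94 in untreated Ad-GFP and 9.66, 9.60 and 9.65 in untreated Ad-BRG1 cells. It was 12.8-fold higher without IFNγ (log2 difference 3.68 ± 0.07 SE; adjusted p = 4.88e-13 by limma) and 15.6-fold higher with it. SERPINB8, an intracellular serpin, was 4.04-fold and 4.97-fold higher. Both genes lay close to background in Ad-GFP cells, so these sizes depend on the correction for it, as for PLAU. In untreated cells the raw intensity of SERPINE2 was 176 to 192 in Ad-GFP and 903 to 960 in Ad-BRG1 cells. That of SERPINB8 was 177 to 196 and 350 to 440.

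Of the plasminogen receptors, S100A10, which with annexin A2 binds plasminogen at the cell surface, was 3.76-fold higher without and 3.14-fold higher with IFNγ. ANXA2, the gene for annexin A2, was 1.47-fold and 1.46-fold higher. PLGRKT, in the same part of the list, went the other way. It was 1.42-fold lower in Ad-BRG1 cells without IFNγ and 1.46-fold lower with it, with both called. F12, the gene of coagulation factor XII, read lower in Ad-BRG1 cells, by 0.77 and 0.97 on the log2 scale, with both called. Of the 5 tested genes in this part of the list, 3 were called higher and 2 lower in each of these contrasts. Of the 6 other metalloproteinases tested, MMP11 alone was called higher without IFNγ, and MMP10 and MMP24 were called lower. MMP24 lay close to background, at raw intensity 160 to 170 in untreated Ad-GFP and 152 to 157 in untreated Ad-BRG1 cells. It passed the filter only through untreated Ad-GFP cells, where it was higher. MMP16, a membrane-type metalloproteinase, was 2.02-fold higher in IFNγ-treated Ad-BRG1 cells (log2 difference 1.02 ± 0.28 SE; adjusted p = 0.00760 by limma) and was not called without IFNγ (-0.34). It read 5.79, 6.41 and 7.22 on the treated Ad-BRG1 arrays, a spread wider than for the other genes named.

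Of the metalloproteinase regulators, FURIN, a proprotein convertase that activates MMP14, was 2.45-fold higher without IFNγ and 1.88-fold higher with it. RECK, a membrane inhibitor of metalloproteinases, was at least 1.78-fold higher without IFNγ and 1.77-fold higher with it. BSG (basigin), an inducer of metalloproteinases, was 1.19-fold higher without IFNγ and not called with it (0.06). THBS1, the gene of thrombospondin 1, was at least 1.81-fold and at least 3.03-fold higher, with no Ad-GFP array above background. As for PLAT, these bounds hold for background-corrected values, and the raw signals of RECK and THBS1 differed by less. With IFNγ raw THBS1 was 111 to 117 in Ad-GFP and 211 to 245 in Ad-BRG1 cells. Raw RECK without IFNγ was 134 to 157 and 187 to 206.

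**Figure D4:**
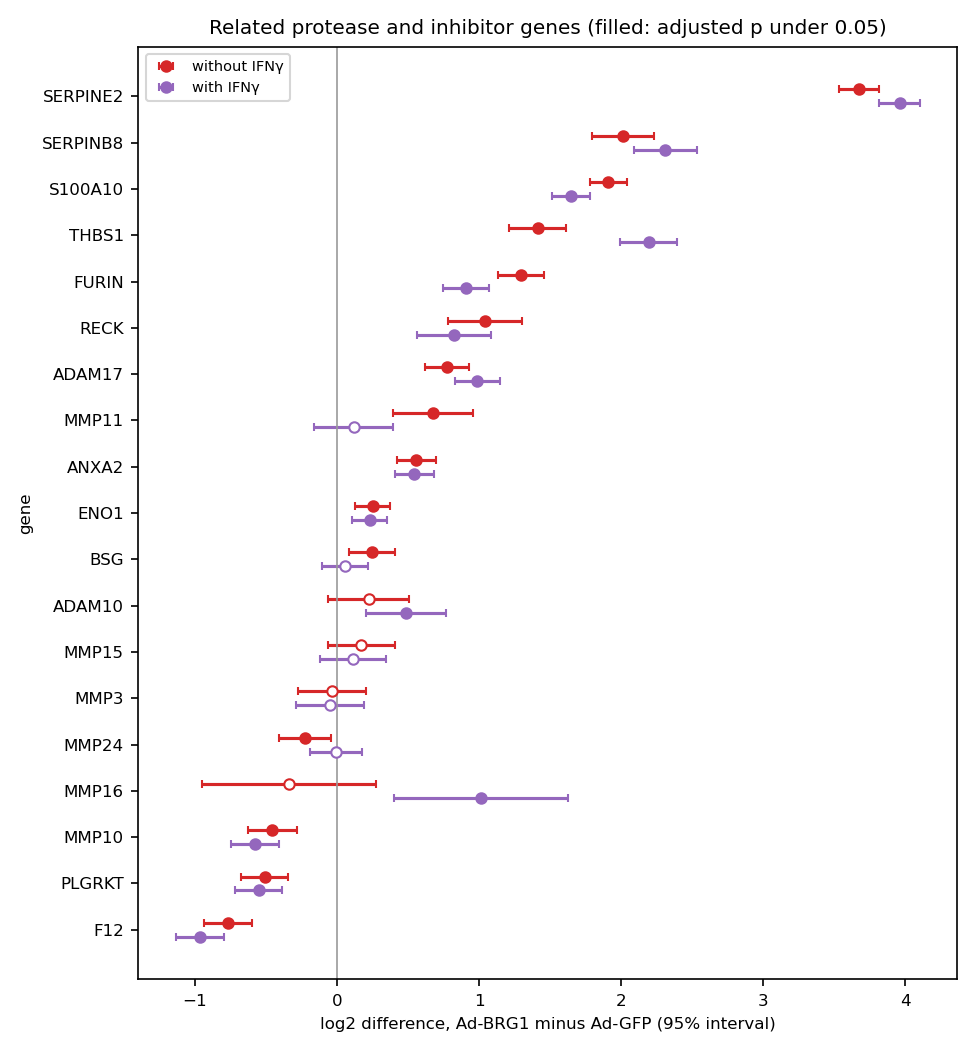
Log2 difference Ad-BRG1 minus Ad-GFP (x axis) of the 19 tested related genes (y axis), ordered by the value without IFNγ, with 95% intervals of the fit and filled points where the adjusted p was under 0.05. SERPINE2 lies farthest right, at 3.68 without and 3.96 with IFNγ, and F12 farthest left.

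In Ad-GFP cells limma called 0 of the 19 related genes for IFNγ (1 higher and 3 lower at an unadjusted p under 0.05). Of all genes, 3.1% were called higher and 0.977% lower there. In Ad-BRG1 cells 3 of the 19 were called higher and 5 lower, against 13.1% and 19.6% of all genes. The 3 that rose were THBS1 (0.78), SERPINB8 (0.39) and SERPINE2 (0.22), and those that fell were MMP11 (-0.69), BSG (-0.31), FURIN (-0.30), PLGRKT (-0.23) and S100A10 (-0.22), all on the log2 scale. The interaction test of limma called 2 of the 19, THBS1 (0.78, SE 0.13; adjusted p = 0.00414) and FURIN (-0.39, SE 0.10; adjusted p = 0.0427). Of all genes, the interaction test called 4.32% higher and 3.83% lower. THBS1 was above background on no Ad-GFP array, so its response in those cells was not measured.

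**Figure D5:**
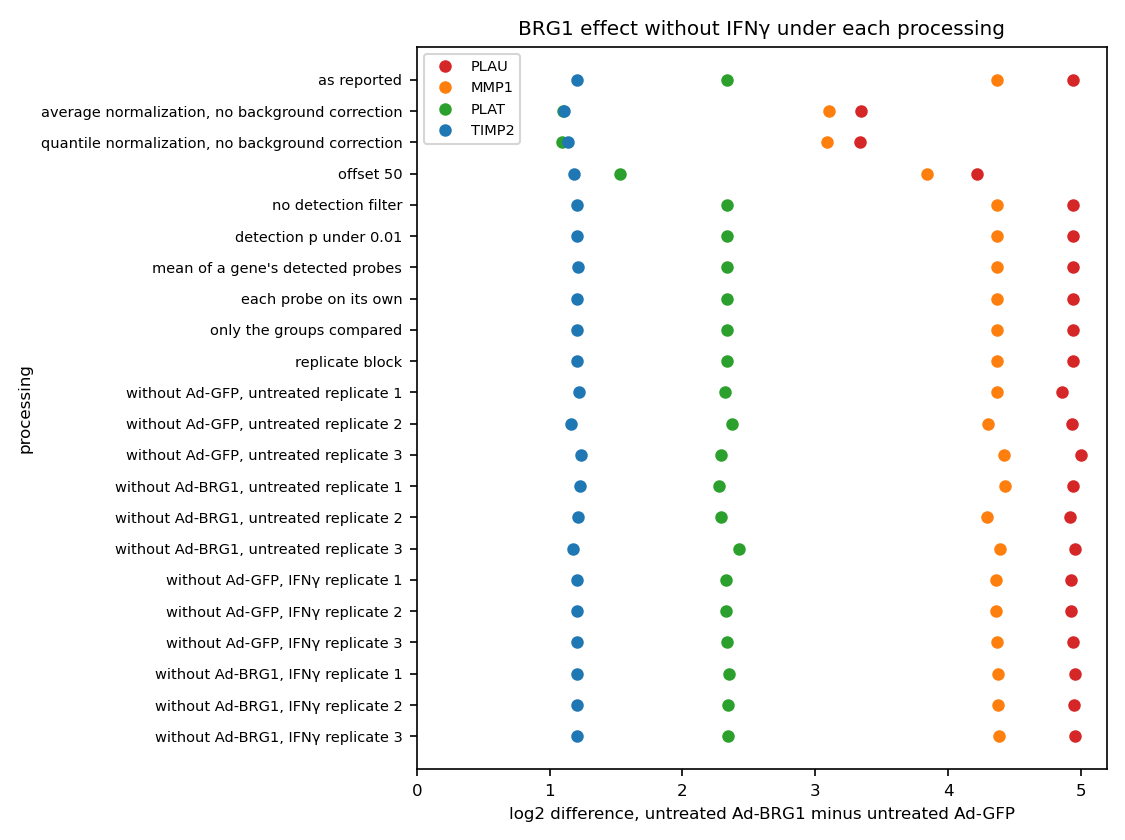
Log2 difference of untreated Ad-BRG1 minus untreated Ad-GFP cells (x axis) for PLAU, MMP1, PLAT and TIMP2 under each processing and with each array left out (y axis). All points lie above 1, and PLAU, MMP1 and PLAT are lowest where no background correction was made.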

How the data were processed

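Each sample was hybridized to its own Illumina Human-WG6 array, read in 1 colour with BeadStudio (version not given in the sources used here). The authors deposited raw probe intensity, without background subtraction, a detection p-value per probe and array, and the same intensity after average normalization, used here as an alternative. Replicates are biological according to the methods. From the raw values, neqc of limma 3.58.1 (R 4.3.3) gave background-corrected, quantile-normalized log2 values (offset 16, negative controls inferred from detection p-values). Kept were probes whose detection p was below 0.05 throughout at least 1 group, and of probes naming 1 gene the brightest stood for it, which left 10333 genes. A linear model over all 12 arrays gave 5 two-sided contrasts, tested on simulated data first. A group without any array at a detection p below 0.05 was set, array by array, to no less than the dimmest detected probe (5.35 to 5.44, log2), and the fold is written as at least. Such a bound holds for background-corrected values, and uncorrected signals can give a smaller ratio. Precision is limited by having 3 arrays in a group.

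Genes named are all 9 members, list genes called with 2-fold or more (the 6 largest per contrast) plus 8 set names. Also named are the 5 genes most correlated with PLAU and with MMP1. MMP10, MMP11, MMP24, PLGRKT, and responses under 2-fold, were added after their values were seen. The members and lists were chosen with earlier results of these data known. Alternatives changed background correction, normalization, offset, detection filter, probe choice, arrays fitted and replicate block. Whether replicate numbers pair the samples was not settled, and the main fit held no pairing. Same-numbered arrays deviated together by r -0.15 to 0.44, and replicate 3 had the lowest raw mean intensity in each group. SMARCA4 and VIM were above background and SMARCA2 was not. Promoter sequences are RefSeq's (GRCh38.p14); 5 of the 9 genes matched a window used here. Plots used matplotlib 3.10.9 in Python 3.11.15.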

Additional observations from a re-analysis of the deposited data

Results flagged for a closer look

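The interaction test of limma, Ad-BRG1 against Ad-GFP response to IFNγ, called PLAT at -0.69 on the log2 scale (adjusted p = 0.00383), and all 3 treated Ad-BRG1 arrays were lower than all untreated ones. After average normalization without background correction PLAT was not called (-0.24, adjusted p = 0.0660). The same test called FURIN at -0.39 (adjusted p = 0.0427) and THBS1 at 0.78 (adjusted p = 0.00414). PLAT and THBS1 were not above background on any Ad-GFP array, so their response in Ad-GFP cells was not measured. Groups of 3 arrays are too small for a check of single outlying arrays.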

How the results depend on the processing

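The BRG1 effects on PLAU, MMP1, PLAT, TIMP2 and on TIMP1 without IFNγ kept direction and call under all 21 alternatives, but PLAU, MMP1 and PLAT were over 1.5 times smaller in fold without background correction, as were PLAU and PLAT with an offset of 50. Over the 7 genes and 5 contrasts, 672 values kept direction and call, 40 lost the call, 3 gained it and 8 changed sign. The number of the 7 genes called for IFNγ in Ad-GFP cells went from 1 to 0 with average or quantile normalization and no background correction, and was 0 to 1 as each array was left out. For IFNγ in Ad-BRG1 cells it went from 5 to 1 when only the groups compared were fitted, and was 1 to 5 as each array was left out: 3 without untreated replicate 1 or IFNγ replicate 1, 2 without untreated replicate 3 or IFNγ replicate 2 or 3, and 1 without untreated replicate 2. For the interaction it was 1 to 2, with MMP1 added (-0.42, adjusted p = 0.0489 by limma) without Ad-BRG1 IFNγ replicate 1, and after average normalization TIMP1 was called (-0.27, adjusted p = 0.0405) in place of PLAT. TIMP1's IFNγ response in Ad-BRG1 cells was called under 6 of 21 alternatives, PLAUR's under 13 of 21, TIMP2's under 17 of 21 and MMP2's under 15 of 20. The values that changed sign were never called: PLAT for IFNγ in Ad-GFP cells was -0.025 after average normalization; with the mean of a gene's probes PLAUR was -0.091 for BRG1 without IFNγ and TIMP2 0.063 for IFNγ in Ad-GFP cells; and as arrays were left out the range was -0.063 to 0.016 for TIMP2 and -0.0041 to 0.049 for TIMP1 for IFNγ in Ad-GFP cells, -0.16 to 0.037 for MMP2 for BRG1 without IFNγ, and -0.057 to 0.11 for PLAU for IFNγ in Ad-BRG1 cells. The cause was not tested.

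All genes called in the interaction numbered 842, and 1270 after average normalization (share higher 63.9%, compared with 53.0%), 1464 after quantile normalization without background correction and 1338 with the replicate number as a block; they ranged from 351 to 1594 as each array was left out. For IFNγ in Ad-BRG1 cells the count went from 3379 to 2183 when only the groups compared were fitted and was 2093 and 2228 without untreated replicate 1 and IFNγ replicate 3; for IFNγ in Ad-GFP cells it went from 421 to 274 and 275 without untreated replicate 2 and 3. With the replicate block, 5, 5, 1, 4 and 1 of the 7 genes were called in the 5 contrasts, and TIMP1 for IFNγ in Ad-BRG1 cells was the call lost (adjusted p = 0.0574). The BeadChip as a block was not run, since the column names give no chip. The dimness of PLAT, MMP2, MMP14 and TIMP3, and of PLAU and MMP1 in Ad-GFP cells, limits what the probes can show.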
